A study of Mus musculus with 6 samples.

Results

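The CDK inhibitors other than p21, together with lamin B1 and β-galactosidase, were examined in lung 100 days after irradiation. The set holds 8 of the 40842 reference genes in the files and was taken by gene name. It consists of Cdkn1b and Cdkn1c of the CIP/KIP family, Cdkn2a, Cdkn2b, Cdkn2c and Cdkn2d of the INK4 family, and the senescence genes Lmnb1 and Glb1. All 8 were found in every library with a single entry each, and all 8 had a mean of at least 1 FPKM (a level per length of transcript and per depth of library), the minimum for testing.

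The irradiated group held 3 libraries of whole lung polyA RNA (irradiated 1 to 3) from wild-type female C57BL/6N mice that had received 20 Gy of 9 MeV electrons in 1 dose. The control group held 3 libraries (control 1 to 3) from untreated mice of the same strain, sex and genotype, with the same time label of 100 days. The exposed part of the body and the age of the mice are not given in the labels. Nor do the labels tie the libraries to separate animals, and the p-values therefore describe variation among libraries, whose source may be technical. From the ratio of coverage to FPKM, aligned sequence came to 5.82, 10.4 and 5.11 Gb in irradiated 1 to 3 and to 6.28, 6.77 and 5.89 Gb in control 1 to 3. Lung markers were abundant in every library, with summed FPKM over 9 epithelial markers of 28833 to 38590 in irradiated lung and 49903 to 62553 in controls. Markers of other tissues varied widely. On the log2(FPKM + 1) scale, relative to the control mean, the median of 5 heart muscle markers was 0.23, −2.46 and 0.47 in irradiated 1 to 3. In control 1 to 3 it was −0.93, 1.78 and −0.76. For 5 adipose markers it was 1.45, −1.78 and 0.56, against −1.56, 2.26 and −0.83. In both lists irradiated 2 was the lowest library and control 2 the highest. In irradiated 2, 6 red cell genes summed to 6284 FPKM, against 1352 to 1714 FPKM in controls, and its neutrophil markers were the highest of the 6 libraries.

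Inhibitors of the INK4 family bind CDK4 and CDK6 and keep cyclin D from activating them, so that RB stays active and E2F targets stay off. The CIP/KIP proteins bind whole cyclin-CDK complexes, chiefly those of CDK2. Cells that have left the cycle for good after DNA damage are described in many tissues as high in p21 and p16, low in lamin B1, and high in the lysosomal β-galactosidase activity that is used to stain them. RNA of whole tissue cannot tell apart fewer cells of a type and less RNA in each cell, and this holds for every value given here.

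Cdkn2c, the gene of p18INK4c, was the member with the largest difference between the groups. It was at 8.65, 8.46 and 8.80 FPKM in irradiated 1 to 3, against 13.8, 17.4 and 14.4 FPKM in control 1 to 3. The 3 irradiated libraries lay close together, and every one of them was below every control. The mean was 8.64 ± 0.172 FPKM in irradiated lung and 15.2 ± 1.90 FPKM in control lung (SD, n = 3 each), a ratio of 0.568. The change on the log2(FPKM + 1) scale was −0.74 ± 0.10 (SE), with a 95% interval of −0.99 to −0.50. It ranked 46 by p among 13908 genes tested and did not pass the threshold of 0.05 (limma adjusted p = 0.0565).

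None of the 8 members passed in either direction, where 0.180% of all genes tested did (25 of 13908). The groups did not overlap for 1 member, Cdkn2c, while 24.5% of all genes tested had groups that do not overlap, so a count of 1 in 8 is no result about the set. At an unadjusted p under 0.05, 1 member passed, Cdkn2c, as did 2466 of all genes tested. In an exact permutation test, two-sided, p was 0.10 for Cdkn2c, the smallest that 3 against 3 libraries allow, and 0.30 to 1.0 for the other 7. The adjusted p of Cdkn2c was 0.0483 when the genes tested were limited to those with a mean of at least 5 FPKM, and lay between 0.0483 and 0.282 over all 18 alternatives run, with a negative change in each.

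**Figure D1:**
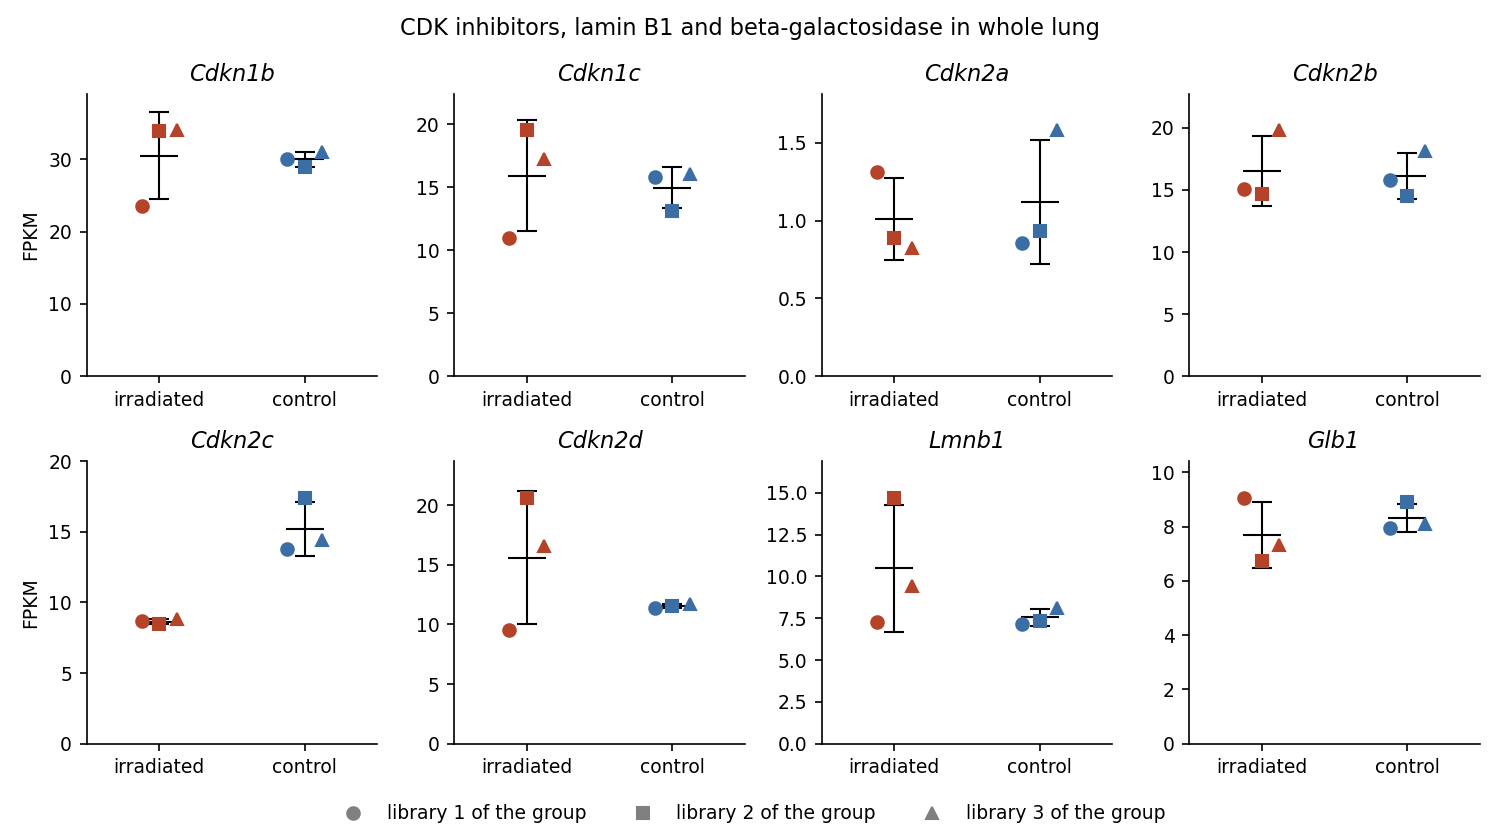
FPKM of the 8 members in the 3 irradiated (left) and 3 control (right) libraries, each panel starting at 0. Points are libraries, the line is the mean and the bars are ± 1 SD. Cdkn2c is at 8.46 to 8.80 FPKM in irradiated lung, below all controls, and Cdkn2d and Lmnb1 are highest in irradiated 2.

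**Figure D2:**
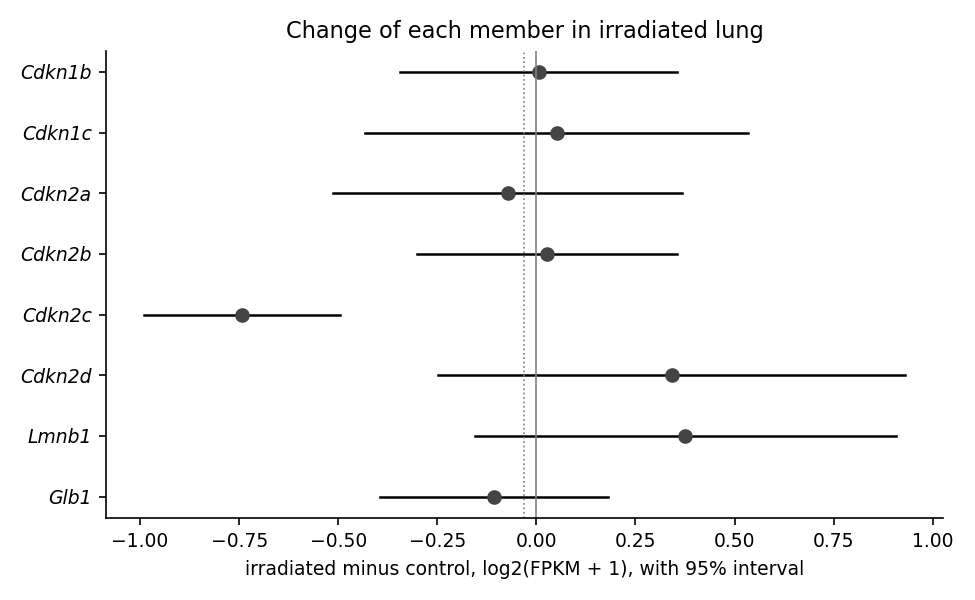
Change of each member in irradiated relative to control lung, as the difference of mean log2(FPKM + 1), with the 95% interval of the limma fit. The dotted line is the median of all genes tested, −0.03. The interval of Cdkn2c lies below 0, and those of the other 7 include 0.

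The Cdkn2c gene lies at chromosome 4, 109518073 to 109523953, minus strand (GRCm39, as in the files), and no other reference gene overlaps it. RefSeq names 2 mRNAs for it, which start at different places and share the coding exons. The shorter mRNA starts inside the gene and the longer one at its upstream end. The upstream start is rich in C and G (77.2% of the 250 bases before it, with 29 CG pairs), and the internal start is not (42.8%, 6 CG pairs). The median over 32851 RefSeq promoter windows of this length is 52.4% and 6 CG pairs. The bases before each start are printed because the balance of the 2 mRNAs is measured further on. They are from RefSeq (GRCm38.p6, minus strand, 5′ to 3′), and capitals mark the GC box GGGCGG, searched on both strands.

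Cdkn2c upstream start, chr4:109666757-109667006: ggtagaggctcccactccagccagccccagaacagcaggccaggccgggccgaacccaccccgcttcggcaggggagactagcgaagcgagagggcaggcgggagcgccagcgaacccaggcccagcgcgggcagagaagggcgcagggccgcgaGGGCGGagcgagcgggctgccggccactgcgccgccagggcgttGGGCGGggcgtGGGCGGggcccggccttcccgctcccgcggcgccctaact

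Cdkn2c internal start, chr4:109665373-109665622: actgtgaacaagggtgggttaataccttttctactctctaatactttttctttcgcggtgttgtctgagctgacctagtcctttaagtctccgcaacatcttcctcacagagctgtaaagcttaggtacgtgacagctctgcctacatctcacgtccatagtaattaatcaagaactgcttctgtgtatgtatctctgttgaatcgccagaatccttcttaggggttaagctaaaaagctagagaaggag

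The upstream window holds 3 GC boxes and the internal window 0, where 32.7% of all windows hold at least 1. Neither window matches the E2F letters TTTCCCGC, TTTCGCGC, TTTGCCGC or TTTGGCGC on either strand (1.86% of all windows do) or the p53 half-site (7.13% do). A lack of these letters says nothing about the factors themselves.

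The deposited columns carry a trace of the mix of mRNAs. For a gene with a single transcript, coverage per base divided by FPKM is a constant of the library, and for a gene with several transcripts the ratio can be lower. Relative to that constant, the ratio of Cdkn2c was 0.653, 0.644 and 0.648 in irradiated 1 to 3, against 0.597, 0.580 and 0.580 in control 1 to 3. The groups did not overlap, and the irradiated libraries were the higher ones. The share of all genes whose ratios do not overlap was not computed, so this separation is a description only. The ratio was looked at only after the data had been seen. The log2 change of the ratio was 0.147 ± 0.0154 (SE), and it did not pass over the 9686 genes with a ratio below 0.99 in at least 1 library (limma adjusted p = 0.251), of which 0.0516% were called. The ratios of the other members stayed within narrow ranges over all 6 libraries: 0.967 to 0.978 for Cdkn1c, 0.785 to 0.802 for Cdkn2a, 0.861 to 0.877 for Cdkn2d and 0.961 to 0.964 for Glb1. Cdkn1b, Cdkn2b and Lmnb1 had ratios of 0.999 to 1.000, as genes with a single transcript do.

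If the deposited entry rests on the 2 RefSeq mRNAs of Cdkn2c, the ratio can be solved for their shares. The lengths used, 1106 and 2038 bases, are those of GENCODE models, the longer one cut to the RefSeq gene start. The shorter mRNA is then estimated at 5.27, 5.33 and 5.46 FPKM in irradiated 1 to 3, against 10.3, 13.6 and 11.3 FPKM in control 1 to 3. The longer mRNA is estimated at 3.39, 3.13 and 3.34 FPKM in irradiated lung, against 3.55, 3.75 and 3.09 FPKM in control lung. In these estimates the groups are apart for the shorter mRNA (ratio of means 0.456) and overlap for the longer one (0.949). In an exact permutation test, two-sided, the p was 0.10 for the shorter mRNA, the smallest that 3 against 3 libraries allow, and 0.50 for the longer. With the upstream start of GENCODE, which makes the longer mRNA 2471 bases, the ratio of means is 0.461 for the shorter and 0.775 for the longer mRNA, and the groups are then apart for the longer mRNA too (exact permutation p = 0.10). The annotation behind the files is not given in the sources used here. Among 15 other genes with 2 matched transcripts and the same span, the deposited ratio lay between the bounds that the transcript lengths set in 9 of them. For Cdkn2a, the other member with 2 modelled transcripts, it did not: the lengths set bounds of 0.748 and 0.758, and the deposited ratio was 0.785 to 0.802. The Cdkn2c estimates are therefore conditional on an assumption whose bounds were met in 9 of the 15 genes, and not in the rest or in Cdkn2a.

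**Figure D3:**
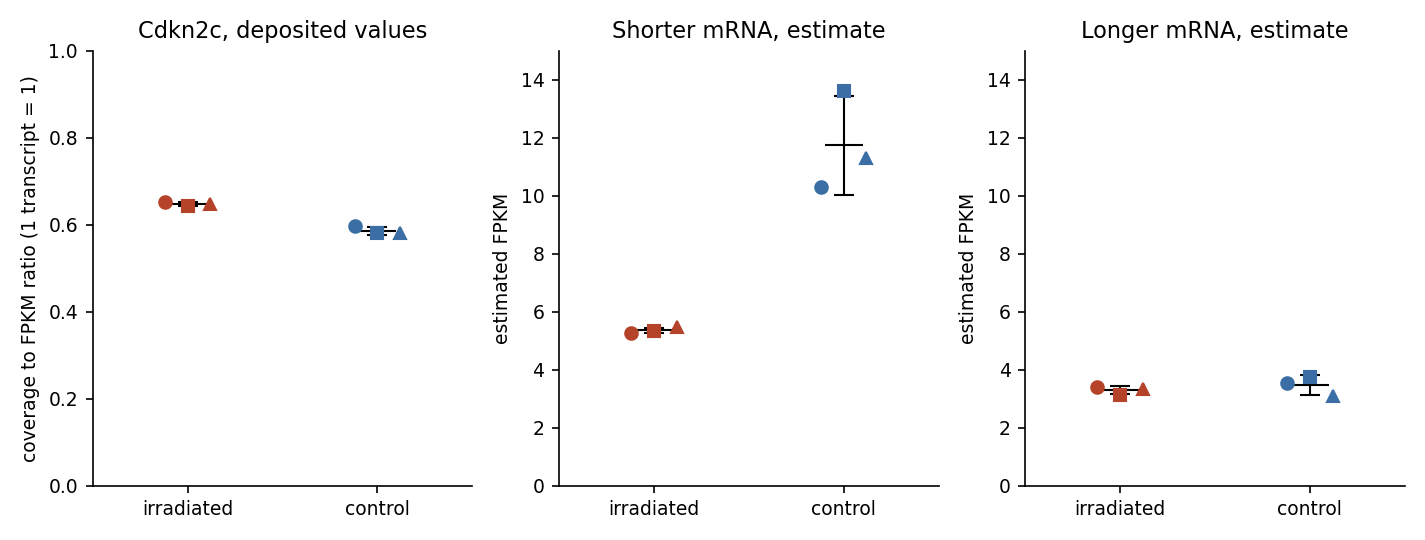
Cdkn2c by library: coverage to FPKM ratio relative to genes with 1 transcript (left), and the estimated FPKM of the shorter (middle) and longer (right) mRNA. Lengths are of GENCODE models, the longer one cut to the RefSeq gene start. Points are libraries, with mean ± SD. The shorter mRNA is at 5.27 to 5.46 FPKM in irradiated lung and at 10.3 to 13.6 FPKM in controls, and the longer one overlaps.

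Among 8918 named genes that averaged 5 FPKM or more, those closest to Cdkn2c over the 6 libraries were Sftpc, the surfactant protein C of alveolar type 2 cells, Dpysl2, a protein of the cytoskeleton, and Yipf2, a Golgi membrane protein. Their root mean square differences from Cdkn2c, on centred log2(FPKM + 1), were 0.0586, 0.0718 and 0.0787. Of the 3, Dpysl2 was among the genes called (log2 change −0.75 ± 0.09, limma adjusted p = 0.0452). Sftpc was at 9588, 8815 and 8741 FPKM in irradiated 1 to 3, against 14677, 16828 and 14986 FPKM in control 1 to 3. For all 3 genes every irradiated library was below every control, which follows from choosing them for their likeness to Cdkn2c and supports nothing further. Sftpc and Yipf2 were not called (limma adjusted p = 0.0793 and 0.0565). The call of Dpysl2, a gene chosen by the same likeness, is no separate support either. The epithelial marker list had medians of −0.33, −0.53 and −0.30 in irradiated 1 to 3 relative to the control mean, against −0.04, 0.04 and −0.02 in control 1 to 3, with negative changes in 8 of its 9 genes and 0 called. Other lists were lower too, and the endothelium and fibroblast lists each had 1 gene called lower. The median log2 change was −0.68 for NK cell and −1.02 for mesothelial markers, against −0.36 for epithelial ones. It was also negative for endothelium, fibroblasts, smooth muscle, B cells and heart muscle. For alveolar macrophages it was −0.12, with 3 positive and 3 negative changes. The summed FPKM of these markers was 398 to 603 in irradiated lung and 279 to 376 in control lung. The median log2 change was −0.02 for adipose tissue, near the −0.03 of all genes tested. It was positive for monocytes and interstitial macrophages, neutrophils, T cells and red cells. The part of the epithelial share of the tissue, or of any other cell type, in the Cdkn2c values was not tested.

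Cdkn2d, the gene of p19INK4d, was at 9.55, 20.6 and 16.6 FPKM in irradiated 1 to 3, against 11.4, 11.5 and 11.7 FPKM in control 1 to 3. Irradiated 1 was the lowest of the 6 libraries and irradiated 2 the highest, so the groups overlapped. The mean was 15.6 ± 5.61 FPKM in irradiated lung and 11.5 ± 0.136 FPKM in control lung (log2 change 0.34 ± 0.25, limma adjusted p = 0.512). The 95% interval of the change, −0.25 to 0.93, includes 0.

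Lmnb1, which codes for lamin B1 of the nuclear lamina, was at 7.29, 14.7 and 9.44 FPKM in irradiated 1 to 3, against 7.17, 7.36 and 8.11 FPKM in control 1 to 3. Irradiated 2 stood apart at the top, and irradiated 1 was within the range of the controls. The mean was 10.5 ± 3.82 FPKM in irradiated lung and 7.54 ± 0.496 FPKM in control lung (log2 change 0.38 ± 0.22, 95% interval −0.15 to 0.91, limma adjusted p = 0.421).

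Neutrophil markers differed widely among the irradiated libraries, lowest in irradiated 1 and highest in irradiated 2, and several members were also lowest in irradiated 1. Relative to the control mean, the median of 8 neutrophil markers was 0.23, 4.19 and 2.79 in irradiated 1 to 3 on the log2(FPKM + 1) scale, against −0.10, −1.0 and 0.99 in control 1 to 3. All 8 markers had positive changes and 0 were called. On the same scale Cdkn2d was at −0.25, 0.79 and 0.49 in irradiated 1 to 3 and Lmnb1 at −0.04, 0.88 and 0.29. Cdkn1b, at −0.33, 0.17 and 0.18, and Cdkn1c, at −0.41, 0.37 and 0.19, were likewise low in irradiated 1 and higher in irradiated 2 and 3. Glb1, at 0.11, −0.27 and −0.16, and Cdkn2a, at 0.14, −0.15 and −0.20, were highest in irradiated 1, and Cdkn2b, at −0.09, −0.12 and 0.29, was highest in irradiated 3. The markers' summed FPKM ranged from 223 to 4822 in irradiated lung and from 77.0 to 507 in control lung, and S100a8 among them, a gene picked after its values were seen, was at 75.0, 2029 and 510 FPKM in irradiated 1 to 3, against 59.3, 27.2 and 199 FPKM in control 1 to 3. In controls, where that list spanned −1.0 to 0.99, Cdkn2d stayed between −0.01 and 0.02 and Lmnb1 between −0.06 and 0.09. Without irradiated 2 the log2 change from control was 0.118 for Cdkn2d and 0.124 for Lmnb1, and without irradiated 1 it was 0.636 and 0.585. The genes closest to Lmnb1 over the 6 libraries were Gpsm3, a regulator of G protein signalling (root mean square difference 0.0635), Gadd45a, a stress gene that p53 induces (0.0785), and Lmcd1, a LIM domain protein (0.0816). None of these was called (limma adjusted p = 0.420, 0.513 and 0.548). Their likeness to Lmnb1 follows from how they were chosen and supports nothing further. The part of neutrophils, of red cells, of heart muscle and adipose tissue and of the depth of irradiated 2 in these values was not tested.

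**Figure D4:**
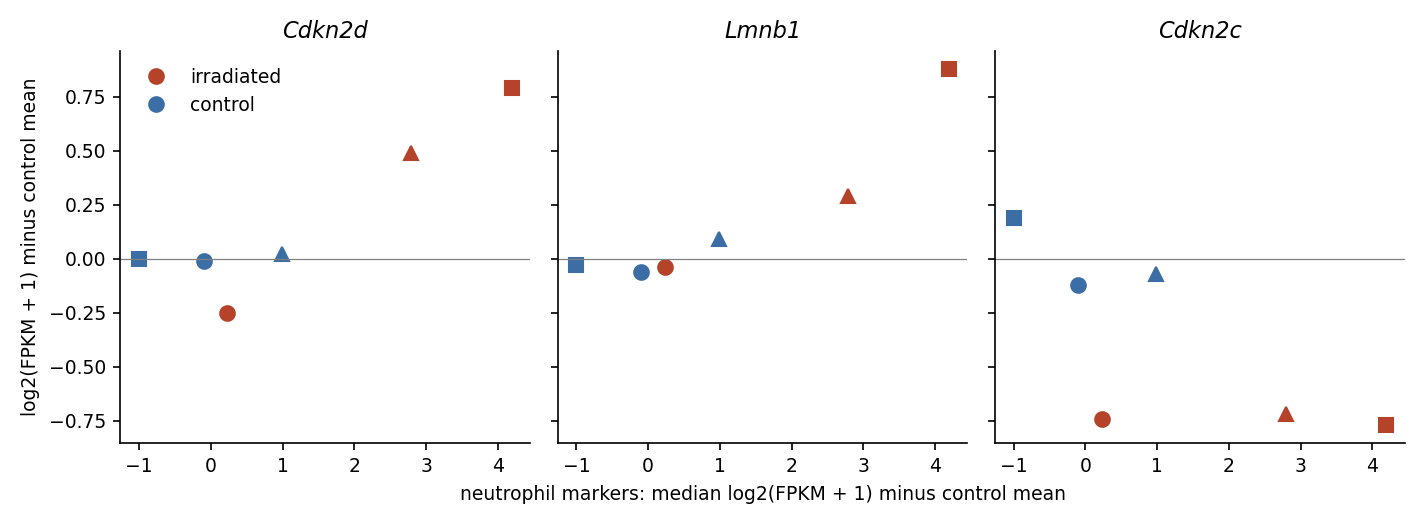
Cdkn2d, Lmnb1 and Cdkn2c by library against the median of 8 neutrophil markers, both as log2(FPKM + 1) minus the control mean, with irradiated libraries in red and controls in blue (circle, square and triangle for libraries 1, 2 and 3). Irradiated 2 and 3 are high on both axes for Cdkn2d and Lmnb1, and Cdkn2c is at −0.77 to −0.72 in all 3 irradiated libraries.

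Cdkn2a codes for p16INK4a and, from another first exon and reading frame, for p19ARF, which holds back MDM2 and so spares p53. It was the lowest member, at 1.31, 0.889 and 0.825 FPKM in irradiated 1 to 3, against 0.853, 0.933 and 1.58 FPKM in control 1 to 3. The groups overlapped throughout, with the highest value in control 3. The mean was 1.01 ± 0.261 FPKM in irradiated lung and 1.12 ± 0.399 FPKM in control lung (log2 change −0.07 ± 0.19, 95% interval −0.51 to 0.37, limma adjusted p = 0.877). Coverage was 3.31 to 7.39 reads deep per base, and near 1 FPKM the log2(FPKM + 1) scale understates a change. The gene lies at chromosome 4, 89192710 to 89212856, minus strand (GRCm39), and the deposited entry spans both first exons. The bases before each RefSeq start are printed to show that p16 and ARF RNA begin in unlike sequence; source, build, strand and capitals are as for Cdkn2c.

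Cdkn2a upstream start (ARF), chr4:89294620-89294869: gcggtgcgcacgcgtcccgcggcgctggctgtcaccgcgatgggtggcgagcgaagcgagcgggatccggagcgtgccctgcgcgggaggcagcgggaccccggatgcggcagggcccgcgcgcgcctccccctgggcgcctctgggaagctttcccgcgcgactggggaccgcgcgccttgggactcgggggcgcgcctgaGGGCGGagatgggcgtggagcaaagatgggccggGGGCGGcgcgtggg

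Cdkn2a internal start (p16), chr4:89282193-89282442: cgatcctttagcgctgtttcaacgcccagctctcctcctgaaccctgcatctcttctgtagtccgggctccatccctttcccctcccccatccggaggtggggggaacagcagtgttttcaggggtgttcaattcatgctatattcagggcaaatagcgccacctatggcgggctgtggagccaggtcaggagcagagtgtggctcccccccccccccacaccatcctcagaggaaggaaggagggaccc

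The window of the ARF start is 78.4% C and G with 40 CG pairs, 2 GC boxes and 1 match to the E2F letters, which begins 99 bases before the start. The window of the p16 start is 60.0% C and G with 7 CG pairs, and it holds 0 GC boxes and 0 E2F matches. The levels of p16 and ARF RNA are not given, since the files hold no values per transcript and the ratio of coverage to FPKM lay above the bounds that the 2 transcript lengths allow.

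Cdkn2b, the gene of p15INK4b, a neighbour of Cdkn2a that TGF-β is known to induce, was at 15.1, 14.7 and 19.8 FPKM in irradiated 1 to 3, against 15.8, 14.5 and 18.1 FPKM in control 1 to 3. The libraries of both groups mixed, and the log2 change was 0.03 ± 0.14 (95% interval −0.30 to 0.36, limma adjusted p = 0.940). Cdkn2b lies at chromosome 4, 89224526 to 89229269, and overlaps the noncoding gene Gm12610 on the opposite strand. Gm12610 was at 0.0385 to 0.0787 FPKM in irradiated lung and 0.0188 to 0.0555 FPKM in control lung.

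The 4 INK4 genes together summed to 34.6, 44.7 and 46.0 FPKM in irradiated 1 to 3, against 41.9, 44.4 and 45.8 FPKM in control 1 to 3, ranges that overlap. Within that sum Cdkn2c made up 25.0, 18.9 and 19.1% in irradiated 1 to 3, against 33.0, 39.1 and 31.5% in control 1 to 3. Cdkn2d made up 36.6 ± 9.28% in irradiated lung and 26.3 ± 0.90% in control lung (SD, n = 3 each). The FPKM of Cdkn2d over that of Cdkn2c was 1.10, 2.44 and 1.88 in irradiated 1 to 3, against 0.826, 0.664 and 0.811 in control 1 to 3, so that Cdkn2d was the higher of the pair in each irradiated library and the lower in each control. This is a description of both genes' values given above and no separate test.

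Cdkn1b, the gene of p27KIP1 and the member with the highest FPKM, was at 23.6, 33.9 and 34.0 FPKM in irradiated 1 to 3, against 30.0, 29.0 and 31.0 FPKM in control 1 to 3. Irradiated 1 was below all controls, and irradiated 2 and 3 were above all of them. The mean was 30.5 ± 5.97 FPKM in irradiated lung and 30.0 ± 1.01 FPKM in control lung, with a log2 change of 0.01 ± 0.15 (95% interval −0.34 to 0.36, limma adjusted p = 0.989).

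Cdkn1c, the imprinted gene of p57KIP2, was at 11.0, 19.5 and 17.2 FPKM in irradiated 1 to 3, against 15.8, 13.1 and 16.0 FPKM in control 1 to 3. As with Cdkn1b, irradiated 1 was lowest and irradiated 2 and 3 were above the controls. The log2 change was 0.05 ± 0.20 (95% interval −0.43 to 0.53, limma adjusted p = 0.925). Cdkn1b lies at chromosome 6, 134897364 to 134902488, plus strand, and Cdkn1c at chromosome 7, 143012076 to 143014802, minus strand (GRCm39), and no reference gene overlaps them.

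Glb1, which codes for lysosomal β-galactosidase, was at 9.06, 6.72 and 7.31 FPKM in irradiated 1 to 3, against 7.95, 8.89 and 8.10 FPKM in control 1 to 3. The highest and the lowest library were both irradiated ones. The log2 change was −0.11 ± 0.12 (95% interval −0.39 to 0.18, limma adjusted p = 0.690). Glb1 lies at chromosome 9, 114230146 to 114303447, plus strand (GRCm39). Tmppe, a gene on the same strand that overlaps it, was at 3.37, 2.65 and 2.80 FPKM in irradiated 1 to 3, against 3.21, 2.73 and 2.52 FPKM in control 1 to 3, and reads of the shared stretch could be given to either gene. The enzyme's activity, which is what senescence stains measure, was not analysed here.

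In irradiated lung the order of mean FPKM was Cdkn1b, Cdkn2b, Cdkn1c, Cdkn2d, Lmnb1, Cdkn2c, Glb1 and Cdkn2a. In control lung it was Cdkn1b, Cdkn2b, Cdkn2c, Cdkn1c, Cdkn2d, Glb1, Lmnb1 and Cdkn2a. In irradiated lung, Cdkn1b at the top and Cdkn2a at the bottom were apart from their neighbours in every library, and all neighbours from Cdkn2b to Glb1 overlapped. In control lung the ranges of Cdkn2b, Cdkn2c and Cdkn1c overlapped in turn, as did those of Glb1 and Lmnb1, and Cdkn2d stood between these groups.

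For comparison, the p21 gene Cdkn1a was at 158, 186 and 80.9 FPKM in irradiated 1 to 3, against 17.0, 24.6 and 31.7 FPKM in control 1 to 3. The 6 other CDK inhibitors summed to 88.2 ± 16.4 FPKM in irradiated lung and 89.0 ± 3.32 FPKM in control lung. Cdkn1a made up 69.6, 65.5 and 45.4% of the summed FPKM of all 7 in irradiated 1 to 3, against 16.3, 22.2 and 25.5% in control 1 to 3. Its own change did not pass over all genes (limma adjusted p = 0.0624).

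Genes of CDKs, cyclins and their partners, among them those that these inhibitors bind, were tested as a list of 13, of which 10 reached the minimum. Of the 10, limma called 0 (1 at an unadjusted p under 0.05), and their median log2 change was 0.02, where the median of all genes tested was −0.03. Over all genes tested, 2466 of 13908 had an unadjusted p under 0.05. The counts at that p, here and for the lists below, are descriptions to set beside that share. Cdk4, the main INK4 target, was at 36.2, 28.5 and 39.2 FPKM in irradiated 1 to 3, against 46.0, 52.7 and 39.4 FPKM in control 1 to 3 (log2 change −0.40 ± 0.15, limma adjusted p = 0.249). The groups for Cdk4 are apart by a small margin, between irradiated 3 and control 3. Groups that do not overlap were found for 1 of the 10 and for 24.5% of all genes tested. Cdk6 (log2 change 0.09 ± 0.15) and Cdk2 (−0.14 ± 0.10) did not pass. Cyclin D1, Ccnd1, was at 123, 93.8 and 53.3 FPKM in irradiated 1 to 3, against 65.3, 61.7 and 55.6 FPKM in control 1 to 3. Ccnd2 (0.16 ± 0.22), Ccnd3 (−0.29 ± 0.27) and the kinase-activating cyclin Ccnh (−0.17 ± 0.12) did not pass either, and Ccne1, Ccne2 and Cdk1 had means under 1 FPKM.

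Of 13 genes of the RB and E2F family, 11 were tested and 0 were called (median −0.03, 3 at an unadjusted p under 0.05). Tfdp2, a dimer partner of E2F, was at 13.7, 13.1 and 13.2 FPKM in irradiated 1 to 3, against 9.60, 8.21 and 8.16 FPKM in control 1 to 3 (log2 change 0.57 ± 0.09, limma adjusted p = 0.0701). Its groups do not overlap, which holds for 4 of the 11 tested genes of the list and for 24.5% of all genes tested. The pocket proteins Rbl2 (0.27 ± 0.11) and Rb1 (0.09 ± 0.09) and the activator E2f1 (−0.32 ± 0.12) did not pass. Of 22 genes that regulate the Cdkn2a locus, most of them polycomb subunits, 22 were tested and 0 called (median 0.00, 2 at an unadjusted p under 0.05). Ets1, an activator of p16 transcription, was at 39.0 ± 2.42 FPKM in irradiated lung and 49.0 ± 0.979 FPKM in control lung (limma adjusted p = 0.133), and Ring1 (−0.30 ± 0.09) and the demethylase Kdm6b (0.40 ± 0.20) did not pass.

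Of 12 genes of p27 turnover and FOXO control, 11 were tested and 0 called (median −0.05, 3 at an unadjusted p under 0.05). Foxo3, a factor that activates Cdkn1b transcription, was at 23.5, 28.3 and 18.4 FPKM in irradiated 1 to 3, against 14.3, 13.0 and 14.3 FPKM in control 1 to 3 (log2 change 0.70 ± 0.15, limma adjusted p = 0.102). The groups for Foxo3 do not overlap, which holds for 6 of the 11 tested genes of this list and for 24.5% of all genes tested. Cdkn1b itself had a change near 0. The ubiquitin ligase subunits Skp1 (−0.30 ± 0.12) and Cul1 (0.19 ± 0.08) did not pass. In the list of ARF, MDM2 and p53, 7 genes were tested and 0 called (median 0.16, 2 at an unadjusted p under 0.05). Mdm2, the ligase that ARF inhibits and a target of p53, was at 32.2, 27.3 and 36.2 FPKM in irradiated 1 to 3, against 20.3, 20.6 and 19.4 FPKM in control 1 to 3 (log2 change 0.63 ± 0.11, limma adjusted p = 0.0793). Trp53, the p53 gene, was at 15.8 ± 2.29 FPKM in irradiated lung and 18.7 ± 0.250 FPKM in control lung (limma adjusted p = 0.335).

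Around Cdkn1c on its chromosome, 11 imprinted or neighbouring genes were listed, 7 tested and 0 called (median −0.08, 1 at an unadjusted p under 0.05). Igf2, the growth factor of the paternal allele, was at 2.58 ± 0.277 FPKM in irradiated lung and 2.37 ± 0.487 FPKM in control lung, and Tssc4 (−0.41 ± 0.15), Cd81 (−0.23 ± 0.14) and Tspan32 (−0.16 ± 0.19) did not pass. Kcnq1ot1, the noncoding RNA whose transcription silences Cdkn1c on the paternal allele, was under the minimum at 0.0748, 0.0712 and 0.0741 FPKM in irradiated 1 to 3, against 0.118, 0.124 and 0.0772 FPKM in control 1 to 3. H19, Phlda2 and Ascl2 were also under 1 FPKM on average. Of 12 listed names of imprinted growth genes elsewhere, 11 were found, 8 were tested and 0 called (median −0.17, 3 at an unadjusted p under 0.05). Peg3 was at 2.68 ± 0.386 FPKM in irradiated lung and 1.41 ± 0.273 FPKM in control lung (limma adjusted p = 0.118), and Nnat (−0.41 ± 0.14) and Ndn (−0.42 ± 0.15) did not pass.

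Beside Lmnb1, 15 genes of the nuclear lamina and envelope were tested and 0 called (median −0.08, 1 at an unadjusted p under 0.05). The A-type lamin gene Lmna was at 44.4 ± 7.99 FPKM in irradiated lung and 47.3 ± 4.83 FPKM in control lung (limma adjusted p = 0.770), and Lmnb2, the other B-type lamin, at 4.63 ± 0.752 and 4.93 ± 0.347 FPKM (0.786). Banf1, a DNA-binding partner of the lamina (−0.48 ± 0.15), Icmt, an enzyme that matures lamins (0.20 ± 0.09), and emerin, Emd (−0.15 ± 0.08), did not pass. Beside Glb1, 33 lysosomal genes were listed, 32 tested and 0 called, 16 with positive and 16 with negative changes (median 0.00, 1 at an unadjusted p under 0.05). Neu1 and Ctsa, which form a complex with β-galactosidase, had log2 changes of 0.06 ± 0.09 and 0.11 ± 0.11, and the membrane protein Lamp1 had one of −0.12 ± 0.10. The largest absolute change on that list was −0.35, and Man2b1 (0.25 ± 0.10), Fuca1 (0.22 ± 0.10) and Ctsd (0.25 ± 0.15) had the smallest p.

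Proliferation genes, 26 in all with 24 tested, had 0 called, 1 at an unadjusted p under 0.05 and a median of 0.13. Mki67 was at 3.49, 2.56 and 1.54 FPKM in irradiated 1 to 3, against 1.74, 1.82 and 1.57 FPKM in control 1 to 3, and Top2a at 4.66, 3.41 and 2.10 FPKM against 2.80, 3.05 and 2.71 FPKM. For both genes the highest and the lowest library were irradiated ones. Stmn1, a microtubule regulator, was at 26.7, 32.2 and 21.7 FPKM in irradiated 1 to 3, against 52.8, 58.0 and 57.8 FPKM in control 1 to 3 (log2 change −1.05 ± 0.14, limma adjusted p = 0.0565). The replication genes Mcm3 (−0.32 ± 0.14) and Pcna (−0.19 ± 0.11) did not pass.

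Of 21 genes of the senescence secretory phenotype, 20 were tested and 0 called (median 0.25). Of the 20, 6 had an unadjusted p under 0.05, as had 2466 of all 13908 genes tested. Gdf15, a stress cytokine, was at 7.88, 6.04 and 3.15 FPKM in irradiated 1 to 3, against 0.462, 0.409 and 0.838 FPKM in control 1 to 3 (log2 change 2.03 ± 0.28, limma adjusted p = 0.0565). Igfbp3 was at 19.1 ± 2.43 FPKM in irradiated lung and 35.5 ± 6.83 FPKM in control lung (limma adjusted p = 0.0793), and the EGF receptor ligand Areg at 7.27 ± 4.12 and 2.81 ± 0.279 FPKM (0.188). Il6 was under the minimum, at 0.347, 0.161 and 0.434 FPKM in irradiated 1 to 3, against 0.302, 0.0692 and 0.997 FPKM in control 1 to 3.

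**Figure D5:**
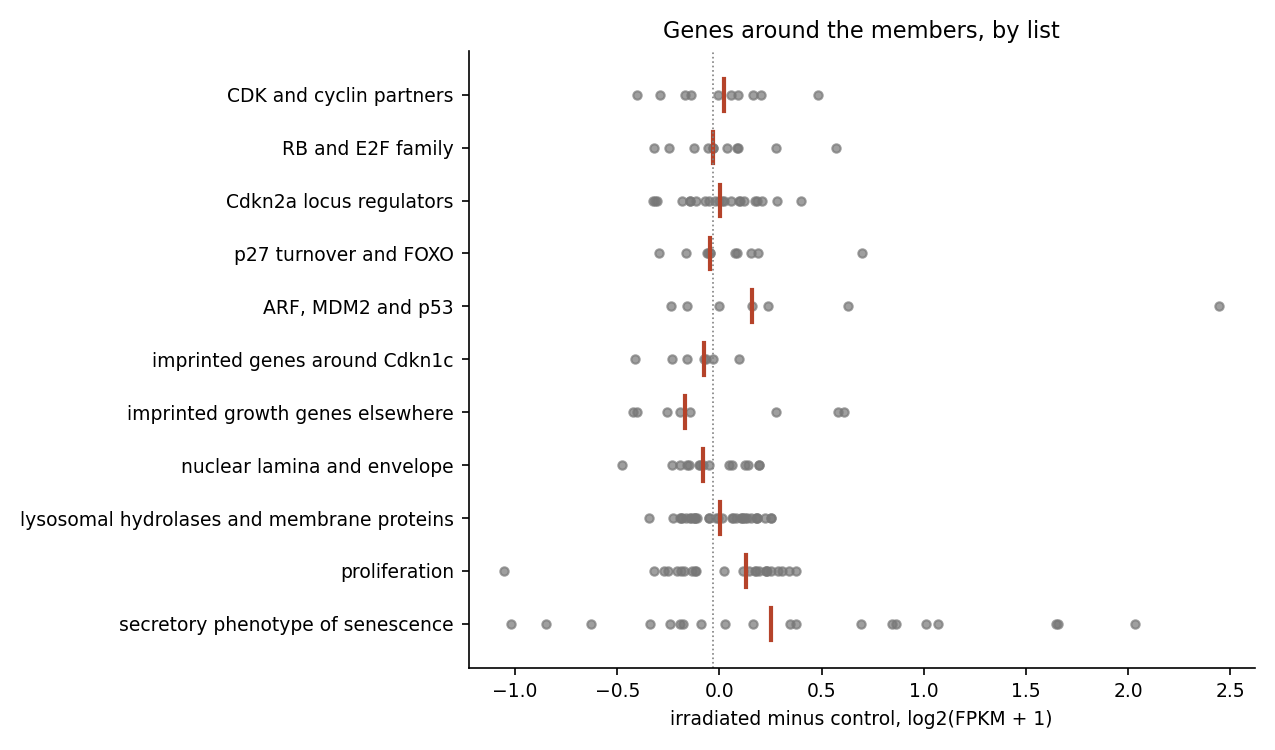
Change in irradiated relative to control lung, as the difference of mean log2(FPKM + 1), for the tested genes of 11 lists around the members, 1 point per gene, with the list median in red and the median of all genes tested dotted. Of the genes shown 0 passed the threshold, and list medians lie between −0.17 and 0.25.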

How the data were processed

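RNA of whole lung was sequenced in 6 libraries. Per the labels' protocols, TRIzol RNA went into polyA libraries that were sequenced on a DNBSEQ-T7. Per the submitters' processing notes, fastp, STAR 2.7.6a, DESeq2 and GRCm39 were used, with no role given. The FPKM and the coverage signal per base are as deposited by the authors; which tool wrote them, with which annotation and strand setting, is not given in the sources used here. Rows with a gene name were summed per gene ID. The TPM column was not used, since assembled loci repeat the reference genes in it.

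The tests were made with limma 3.58.1 in R 4.3.3 (trend and robust variance) on log2(FPKM + 1), for the 13908 genes that averaged 1 FPKM or more, with the group as the only term and Benjamini-Hochberg adjustment over all genes tested (threshold 0.05). The fit was tested on simulated data. No counts are given, so no counting interval can be had. Transcript lengths came from GENCODE vM21 cut to the RefSeq gene ends, and promoter windows from RefSeq (both GRCm38). Each list was described by its counts and median, and the 3 genes with the smallest p, plus genes chosen for function, were named, as were the 3 genes nearest in pattern to Cdkn2c and to Lmnb1. A gene that this rule takes is not reported here. The ratio of coverage to FPKM and the Cdkn2c estimates were added after seeing the data. The members and lists were chosen with earlier results of these data known. Alternatives were other pseudocounts, filters, scalings and variance settings, a replicate block and leaving out libraries. The other tools were Python 3.11.15, scipy 1.17.1, pandas 2.3.3, numpy 2.4.6 and, for figures, matplotlib 3.10.9.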

Additional observations from a re-analysis of the deposited data

How the results depend on the processing

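With 3 libraries a group, a member had to differ well beyond the spread among libraries to pass. Of the members, 0 passed under 17 of the 18 alternatives, and 1, Cdkn2c, passed with a minimum of 5 FPKM (log2 change −0.743, adjusted p = 0.0483), where fewer genes were tested. Over the 18, the change of Cdkn2c ranged from −0.803 to −0.579. It was smallest in size with coverage divided by the library constant (−0.579, limma adjusted p = 0.0774). Cdkn2c, Cdkn2d and Lmnb1 kept their sign in all 18. The other members had changes near 0 whose sign turned: without control 2 and irradiated 2 in Cdkn1b (−0.101), Cdkn1c (−0.194) and Glb1 (0.019), at a common FPKM sum in Glb1 (0.010), and on leaving out 1 library. Leaving out each library in turn gave ranges of −0.080 to 0.174 for Cdkn1b, −0.107 to 0.279 for Cdkn1c, −0.177 to 0.076 for Cdkn2a and −0.102 to 0.108 for Cdkn2b, and of −0.803 to −0.649 for Cdkn2c. The cause was not tested.

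The count of genes called, 25 in the fit reported, was 0 with no filter (3531 at an unadjusted p under 0.05), 38 at a minimum of 5 FPKM, 13 at a common sum, 11 with median-ratio scaling and 15 with coverage divided by the library constant, an alternative chosen after seeing the data. It was 9 without control 2 and irradiated 2, and 0 to 116 on leaving out 1 library: 100 without irradiated 1, 3 without irradiated 2, 116 without irradiated 3, 0 without control 1, 1 without control 2 and 0 without control 3. Of the genes called 9 were higher and 16 lower in irradiated lung, and at a common sum 7 were higher and 6 lower, a scaling that put the median of all genes at 0.080, where it was −0.032 as reported. With the replicate number as a block (a replicate block) 0 genes passed, with 1623 at an unadjusted p under 0.05 against 2466. Same-numbered libraries did not deviate together (correlations −0.170, −0.537 and −0.280). With 3 libraries a group, whose deviations sum to 0, this check cannot decide whether the numbers pair the samples, and the labels do not say.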
